A study of Mus musculus with 6 samples.

Results

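Branched-chain amino acid catabolism was examined through 10 genes, *Bcat1*, *Bcat2*, *Bckdha*, *Bckdhb*, *Dbt*, *Bckdk*, *Ivd*, *Mccc1*, *Hibch* and *Aldh6a1*, chosen by gene symbol for their place in the pathway. Of these 10, 6 had a row in the deposited table of 19509 symbols, and the row with the highest total count stood for a symbol with several rows. *Bcat2*, *Bckdhb*, *Hibch* and *Aldh6a1* were not analysed here. The libraries came from inguinal white adipose tissue (iWAT), a subcutaneous fat depot, of C57BL/6 mice fed a Western diet for 12 weeks, and each group had 3 biological replicates. The group labelled AdWT carried the floxed *Lexis* allele (*Lexis* fl/fl) without Cre, and the group labelled AdKO carried the same allele with adiponectin-Cre. This is meant to delete *Lexis*, a long noncoding RNA, in adipocytes and not in the other cells of the depot. The age of these mice at collection is not given in the sources used here. Fold changes are given throughout as libraries labelled AdKO over libraries labelled AdWT.

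Leucine, isoleucine and valine are broken down in mitochondria by a shared pair of steps followed by separate arms. An aminotransferase (BCAT) removes the amino group, and the branched-chain ketoacid dehydrogenase complex (BCKDH) then commits the carbon skeleton to oxidation in an irreversible step, which is switched off when a kinase phosphorylates the complex and switched on again by a phosphatase. Mature adipocytes carry the pathway in abundance, use its products for energy and lipid synthesis, and are known to express less of it in obese fat.

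Of the 6 genes with a row, 4 had enough counts to be tested (*Bckdha*, *Dbt*, *Bckdk* and *Ivd*), and none of these passed the test between the groups. All 4 overlapped between AdWT and AdKO, with log2 fold changes between -0.13 and 0.001 and a median of -0.05, beside a median of 0.007 over all 9872 rows tested. With the quasi-likelihood test of edgeR and Benjamini-Hochberg (BH) adjustment, 0 of the 4 were called at an adjusted *p* under 0.05, beside 0 (0.0%) of all rows tested. Likewise 0 of the 4 had an unadjusted *p* under 0.05, beside 5.73% of all rows (2.76% higher and 2.98% lower in AdKO). Groups that did not overlap were found in 11.9% of all rows, 6.16% with AdKO higher and 5.72% with AdKO lower, and in 0 of the 4. The members' median was 0.033 without AdWT replicate 3 and -0.175 without AdWT replicate 1. DESeq2, run without a prior filter on 19526 rows, called 27 of the 6891 rows to which it gave an adjusted *p*. Run on the rows that edgeR tested, it called 23 of the 8709 with an adjusted *p*. Both runs gave 0 of the members at an unadjusted *p* under 0.05.

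Total counts ranged from 14470542 to 17882713 per library. The targeted gene, annotated as *4930412L05Rik*, had 8 to 9 counts in the libraries labelled AdWT and 11 to 21 in those labelled AdKO (log2 fold change 0.87 ± 0.381 SE, edgeR adjusted *p* = 0.851). Its count thus went against the label, with groups that did not overlap (edgeR unadjusted *p* = 0.055). Which part of the gene the count covers is not given in the sources used here, and directions below follow the labels only. The adipocyte markers *Adipoq* and *Fabp4* were present in every library, and of 15 adipocyte markers 11 had a row. Some genes that every cell or every adipocyte uses, among them *Ogdh*, *Suclg2* and the lipase *Pnpla2*, were listed at 0 in all 6 libraries, so a low count or a 0 in this table is reported as a count and not as a level of expression.

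BCKDH is built from a decarboxylase of alpha and beta subunits, a transacylase core and a dehydrogenase shared with other complexes. *Bckdha*, which encodes the alpha subunit of the decarboxylase, lies on chromosome 7 (build NCBIM37, or mm9) from 26414871 to 26443780 on the minus strand. Its TMM-normalized expression was 131.5, 145.4 and 187.6 CPM (counts scaled to library depth) in AdWT replicates 1, 2 and 3 and 158.2, 127.3 and 138.4 CPM in AdKO replicates 1, 2 and 3. The highest library was thus AdWT replicate 3 and the lowest AdKO replicate 2, and the groups overlapped. The group means were 154.8 ± 29.2 CPM and 141.3 ± 15.7 CPM (SD, n = 3 each). The fitted change on the log2 scale was -0.13 ± 0.143 (SE, edgeR adjusted *p* = 0.885), with a 95% interval from -0.47 to 0.20, or 0.724-fold to 1.15-fold. It was 0.02 without AdWT replicate 3 and -0.24 without AdWT replicate 1.

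*Dbt* encodes the transacylase core of the complex and lies on chromosome 3 from 116215988 to 116252894 on the plus strand. It measured 136.2, 164.3 and 171.4 CPM in AdWT replicates 1 to 3 and 164.7, 136.4 and 155.8 CPM in AdKO replicates 1 to 3. AdWT replicate 1 and AdKO replicate 2 were low to nearly the same level, and the other 4 libraries lay above them. The log2 fold change, -0.05 ± 0.110 (SE), had a 95% interval from -0.30 to 0.21. Its direction turned to 0.01 without AdWT replicate 3, to 0.02 without AdKO replicate 2 and to 0.006 when counts were scaled by library size only. *Dld*, the shared dehydrogenase subunit, was not analysed here.

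*Bckdk* encodes the kinase that phosphorylates and inactivates BCKDH, and it lies on chromosome 7 from 135047596 to 135053178 on the plus strand. Its expression was 175.4, 189.2 and 203.3 CPM in AdWT replicates 1 to 3 and 197.0, 191.5 and 179.7 CPM in AdKO replicates 1 to 3. Of the 4 tested members it had the narrowest spread, 1.16-fold from lowest to highest within AdWT and 1.1-fold within AdKO. Its log2 fold change was 0.001 ± 0.0776 (SE), and its 95% interval from -0.18 to 0.18 (0.882-fold to 1.13-fold) was the narrowest of these 4. Its sign followed the scaling, with 0.05 by library size only and -0.01 with RLE or upper quartile factors. *Ppm1k*, the mitochondrial phosphatase that reactivates the complex, was far lower in count, with 20.6, 20.3 and 24.0 CPM in AdWT replicates 1 to 3 and 24.9, 22.7 and 25.5 CPM in AdKO replicates 1 to 3. This gave a log2 fold change of 0.17 ± 0.110 (SE, edgeR adjusted *p* = 0.853), with a 95% interval from -0.09 to 0.43 and overlapping groups.

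Ratios within a library do not depend on scaling, and 4 were computed, with *p* values adjusted over these 4. For kinase over substrate, *Bckdk* to *Bckdha*, the ratio of counts was 1.33, 1.30 and 1.08 in AdWT replicates 1 to 3 and 1.25, 1.5 and 1.30 in AdKO replicates 1 to 3. These groups overlapped, with a difference of 0.12 in the mean log2 ratio (two-sided exact permutation test, *p* = 0.6, adjusted *p* = 0.6), which was 0.03 without AdWT replicate 3 and 0.043 without AdKO replicate 2. For phosphatase over kinase, *Ppm1k* to *Bckdk*, the ratio was 0.118, 0.107 and 0.118 in AdWT replicates 1 to 3 and 0.127, 0.118 and 0.142 in AdKO replicates 1 to 3. In this ratio every AdKO library lay above every AdWT library, AdKO replicate 2 by a margin smaller than the printed digits, with a difference of 0.17 on the log2 scale (exact permutation test, two-sided *p* = 0.1, as small as 3 replicates against 3 allow, adjusted *p* = 0.4). Without AdKO replicate 3 that difference was 0.101. The ratios of *Dbt* and of *Ivd* to *Bckdha* overlapped between the groups, with differences of 0.08 each on the log2 scale (exact permutation *p* = 0.5 and 0.3, adjusted *p* = 0.6 for both). The latter was 0.022 without AdWT replicate 1, and the former -0.003 without AdWT replicate 3. All but the first of these ratios were chosen after the counts were seen.

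**Figure D1:**
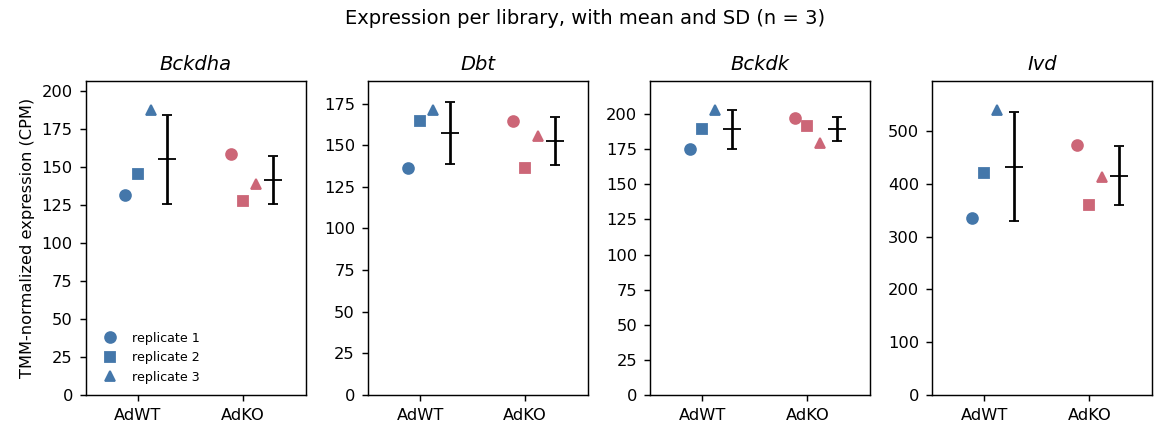
TMM-normalized expression in CPM (y axis, from 0) of the 4 tested members in the libraries labelled AdWT (blue) and AdKO (red), with the replicate given by the marker shape and the mean and SD of 3 replicates in black. AdWT replicate 3 is the highest library in all 4 panels, and the groups overlap in each.

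*Ivd* encodes isovaleryl-CoA dehydrogenase, which acts on the leucine skeleton after BCKDH. It had the highest count of the members, between 5137 and 8085 per library, and lies on chromosome 2 from 118687690 to 118708645 on the plus strand. Its expression was 336.1, 421.1 and 541.0 CPM in AdWT replicates 1 to 3 and 473.2, 360.6 and 413.1 CPM in AdKO replicates 1 to 3. The highest and the lowest library both belonged to AdWT, 1.61-fold apart, while the libraries labelled AdKO spanned 1.31-fold and lay between them. The group means were 432.8 ± 102.9 CPM and 415.6 ± 56.3 CPM (SD, n = 3 each). In log2 terms the change was -0.06 ± 0.178 (SE, edgeR adjusted *p* = 0.963), and the 95% interval from -0.47 to 0.36 was the widest of the tested members. Without AdWT replicate 3 it was 0.125, and without AdWT replicate 1 it was -0.21.

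*Mccc1* and *Mccc2* encode the alpha and beta subunits of methylcrotonyl-CoA carboxylase, the leucine enzyme that follows isovaleryl-CoA dehydrogenase. *Mccc1*, on chromosome 3 from 35858234 to 35899600 on the minus strand, had counts of 3, 6 and 3 in AdWT replicates 1 to 3 and 7, 5 and 2 in AdKO replicates 1 to 3. The highest and the lowest of these were both in AdKO. Summed over a group this was 12 counts (exact Poisson 95% interval 6.2 to 21.0, counting error only) in AdWT and 14 (7.65 to 23.5) in AdKO, too few to be tested. *Mccc2*, the partner subunit, had between 1341 and 1731 counts per library in its largest of 4 rows. The annotation places a lincRNA, *A330050B17Rik*, over part of *Mccc1* on the opposite strand, and whether this affected the count of *Mccc1* was not tested. Such overlaps are not particular to *Mccc1*. Among the members with a row, *Bcat1* and the well-counted *Dbt* also overlap annotated genes on the opposite strand. The log2 fold change of *Mccc2* was -0.11 ± 0.0784 (SE), with overlapping groups.

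*Bcat1* encodes the cytosolic aminotransferase, whereas the mitochondrial enzyme encoded by *Bcat2* is the usual form in adipocytes. The largest of the 3 rows of *Bcat1*, on chromosome 6 from 144942355 to 145024704 on the minus strand, held 5, 9 and 5 counts in AdWT replicates 1 to 3 and 7, 3 and 7 in AdKO replicates 1 to 3. Its groups overlapped (two-sided exact permutation test, *p* = 0.8). The summed counts were 19 (exact Poisson 95% interval 11.4 to 29.7) in AdWT and 17 (9.9 to 27.2) in AdKO. The second row held 3 to 7 counts per library and the remaining row 0 in every library. With its rows summed *Bcat1* passed the filter, and the number of members at an unadjusted *p* under 0.05 was 0 there as well.

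Levels can be compared between genes only per length, and the length of *Ivd* decided the order. Per kilobase of all annotated exons, the mean over the 6 libraries was 83.5 ± 12.5 CPM for *Bckdha*, 77.1 ± 13.6 CPM for *Ivd*, 61.8 ± 3.41 CPM for *Bckdk* and 47.0 ± 4.61 CPM for *Dbt* (SD, n = 6 each). *Bckdha* and *Ivd*, at 71.8 to 106 CPM and 61.1 to 98.3 CPM per kilobase, overlapped, while *Bckdk* and *Dbt*, at 57.3 to 66.4 CPM and 41.3 to 52.0 CPM, did not overlap each other. *Bckdk* lay below *Bckdha* in every library and overlapped *Ivd*. Per kilobase of the longest coding transcript, *Ivd* was the highest with 116 ± 20.4 CPM, because its transcript is 3665 bases long and its annotated exons together 5505. *Ppm1k*, at 4.14 ± 0.397 CPM per kilobase, lay below all 4 by either length.

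The regions before the starts of 3 tested members are shown because these genes were all highest in the same library. RefSeq promoter windows on GRCm38.p6, a later build than that of the counts, matched 9 of the 10 members, and *Dbt* was not among them. The 250 bases before the start were searched on both strands for CCAAT (bound by the factor NF-Y), AGGTCA (the core of sites bound by nuclear receptors such as PPARγ) and CCGCCC (bound by Sp and KLF factors), and capitals mark the matches, all of which were to CCAAT or its reverse ATTGG. The windows are chr2:118861744-118861993 on the plus strand for *Ivd*, chr7:25658762-25659011 on the minus strand for *Bckdha* and chr7:127903823-127904072 on the plus strand for *Bckdk*.
Ivd: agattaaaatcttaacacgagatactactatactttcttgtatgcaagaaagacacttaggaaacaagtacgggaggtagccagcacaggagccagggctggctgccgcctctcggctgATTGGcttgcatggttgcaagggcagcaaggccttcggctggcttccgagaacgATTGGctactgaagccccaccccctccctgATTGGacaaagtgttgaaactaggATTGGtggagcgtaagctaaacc
Bckdha: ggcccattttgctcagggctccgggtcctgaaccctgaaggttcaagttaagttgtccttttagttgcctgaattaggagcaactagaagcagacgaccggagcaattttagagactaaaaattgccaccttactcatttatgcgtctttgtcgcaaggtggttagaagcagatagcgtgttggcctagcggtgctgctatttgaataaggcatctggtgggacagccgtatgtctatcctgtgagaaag
Bckdk: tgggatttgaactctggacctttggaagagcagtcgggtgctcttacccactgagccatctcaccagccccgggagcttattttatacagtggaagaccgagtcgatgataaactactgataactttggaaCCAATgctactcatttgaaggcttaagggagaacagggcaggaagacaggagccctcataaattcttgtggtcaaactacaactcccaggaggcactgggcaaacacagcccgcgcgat
*Ivd* held 4 matches to CCAAT, starting 131, 77, 47 and 23 bases before the gene start, *Bckdk* held 1 at 119 bases, and *Bckdha* held 0. CCAAT was found in 33.8% of all 32851 windows of this length, AGGTCA in 14.0% and CCGCCC in 32.7%. No motif of the 3 was found in all 3 windows, and a match is a description of letters and not of binding.

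The rest of the pathway was described from a list of 21 further genes of transport, the amino acid arms, propionyl-CoA disposal and regulation. Of these, 18 had a row and 17 were tested, 6 with a higher and 11 with a lower mean in AdKO, and the median of their log2 fold changes was -0.08. None passed the BH-adjusted edgeR test, and 1 of the 17 (higher in AdKO) had an unadjusted *p* under 0.05, beside 2.76% of all rows in that direction. The groups did not overlap in 2 of the 17, 1 in each direction, beside 11.9% of all rows.

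Both of these genes belong to amino acid transport. *Slc43a1* encodes a facilitative transporter of branched-chain and other large neutral amino acids, and the largest of its 4 rows had 38, 22 and 29 counts in AdWT replicates 1 to 3 and 44, 43 and 49 in AdKO replicates 1 to 3. Each AdKO library thus lay above each AdWT library. The fitted change was 0.62 ± 0.256 on the log2 scale (SE), with an edgeR adjusted *p* = 0.851 and an unadjusted *p* = 0.0448. It was 0.40 without AdWT replicate 2, and the unadjusted *p* was over 0.05 without any 1 library but AdWT replicate 1. The same held with DESeq2, with rows summed, with scaling by library size only and with the replicate number as a block. *Slc3a2*, the heavy chain that carries amino acid transporters such as that of *Slc7a5* to the cell surface, lay on the other side, with 41.5, 39.5 and 35.8 CPM in AdWT replicates 1 to 3 and 31.1, 35.1 and 35.3 CPM in AdKO replicates 1 to 3. Its fitted change was -0.20 ± 0.0967 on the log2 scale (SE, edgeR adjusted *p* = 0.851, unadjusted *p* = 0.0709), with each AdKO library below each AdWT library. The unadjusted *p* was under 0.05 with rows summed and without AdWT replicate 3, so the gene at that threshold in those settings was *Slc3a2* and not *Slc43a1*. *Slc7a5* itself had a log2 fold change of -0.005 ± 0.316 (SE) and overlapping groups.

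In the arms after BCKDH the tested genes had log2 fold changes between -0.11 and 0.09, and the groups of each overlapped. In the leucine arm *Auh*, a hydratase, had 0.09 ± 0.1 (SE). In the valine arm *Hibadh*, an oxidoreductase, had -0.05 ± 0.0853 (SE), and in the isoleucine arm *Acat1*, the final thiolase, had -0.09 ± 0.109 (SE). Per kilobase of annotated exon *Hibadh* and *Acat1* were the highest of the list, *Hibadh* at 185 ± 12.3 CPM and *Acat1* at 153 ± 15.1 CPM (SD, n = 6). Lowest by count were *Acad8*, the valine-arm dehydrogenase, listed at 0 in every library, and *Acadsb*, its isoleucine-arm counterpart, with 11 to 18 counts per library. These are given as counts and not as levels of expression. Of the 5 genes tested that convert propionyl-CoA to succinyl-CoA or serve that step, 4 were lower and 1 higher, from *Pcca*, a carboxylase subunit, at -0.16 ± 0.0917 (SE) to *Mmaa*, which handles the cobalamin cofactor, at 0.01 ± 0.249 (SE). *Klf15*, a transcription factor known to activate the pathway, had a log2 fold change of -0.20 ± 0.149 (SE, edgeR adjusted *p* = 0.855), with overlapping groups.

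**Figure D2:**
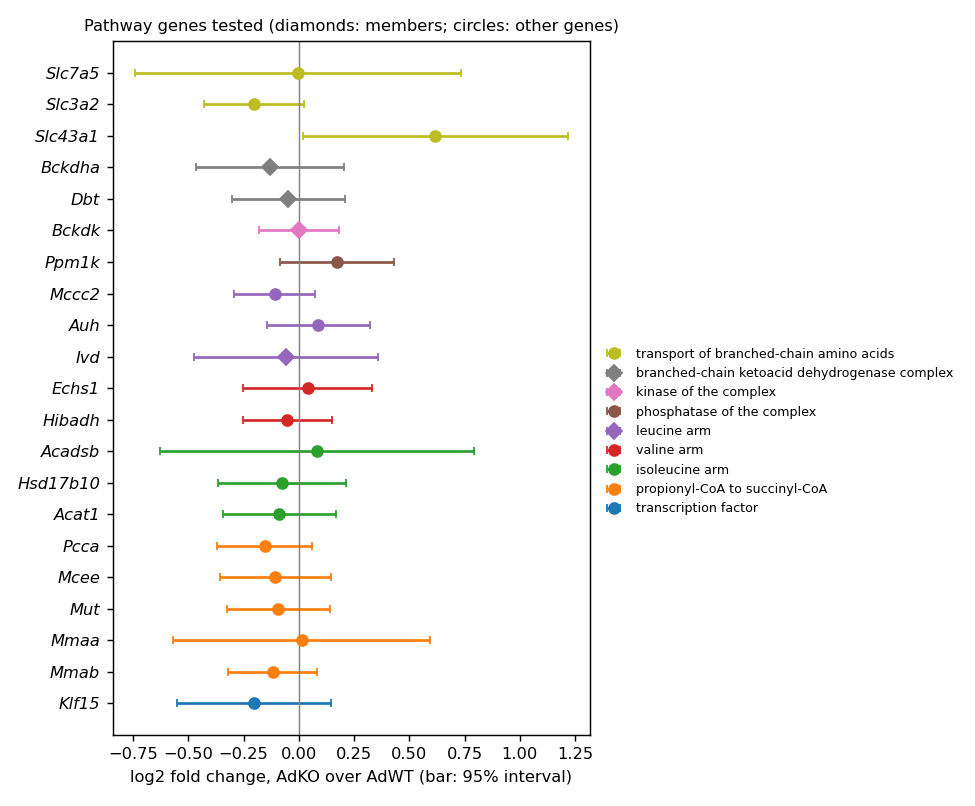
Log2 fold change of AdKO over AdWT (x axis) with its 95% interval (bar) for the 21 pathway genes tested, ordered and coloured by role, with members as diamonds and the other genes as circles. All intervals but that of *Slc43a1*, from 0.02 to 1.22, include 0.

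For each of the 4 tested members, the libraries within AdWT and those within AdKO both lay further apart than the group means. The spreads ran from 1.1-fold within AdKO (*Bckdk*) to 1.61-fold within AdWT (*Ivd*), against ratios of means between 0.913 and 1.0. Averaged over the 4 tested members, the deviation from the mean of all 6 libraries was -0.19, 0.02 and 0.24 on the log2 scale in AdWT replicates 1 to 3 and 0.11, -0.14 and -0.04 in AdKO replicates 1 to 3. AdWT replicate 3 was the highest library in 4 of the 4 and AdWT replicate 1 the lowest in 3, whereas over all rows tested AdWT replicate 3 was the highest in 22.2% and AdWT replicate 1 the lowest in 15.5%. Among the 17 other pathway genes AdWT replicate 3 was the highest in 8 and AdWT replicate 1 the lowest in 7.
The tricarboxylic acid cycle, into which the pathway feeds, showed the same pair of libraries at its ends. Of 13 cycle genes tested, AdWT replicate 3 was the highest in 10 and AdWT replicate 1 the lowest in 9, with mean deviations of 0.12 and -0.15. Between the groups 2 cycle genes had a higher and 11 a lower mean in AdKO, the median of the log2 fold changes was -0.03 (-0.098 without AdWT replicate 1 and 0.008 without AdWT replicate 3), and 0 had an unadjusted *p* under 0.05 in edgeR's test. Its highest genes per kilobase were *Cs* (citrate synthase), with a log2 fold change of -0.03, and *Mdh2* (malate dehydrogenase), with -0.13. Of 10 mitochondrial fatty acid oxidation genes tested, AdWT replicate 3 was the highest in 4 and AdWT replicate 1 the lowest in 3. In that list 1 had a higher and 9 a lower mean in AdKO, with a median of -0.08 and 0 at an unadjusted *p* under 0.05. The median was -0.131 without AdWT replicate 1 and -0.063 without AdKO replicate 1. *Etfa* and *Eci1*, the highest per kilobase, had -0.09 and -0.10, and the lowest, *Cpt1b* and *Etfdh*, had 0.15 and -0.13. Whether the members differed from these lists was not tested.

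**Figure D3:**
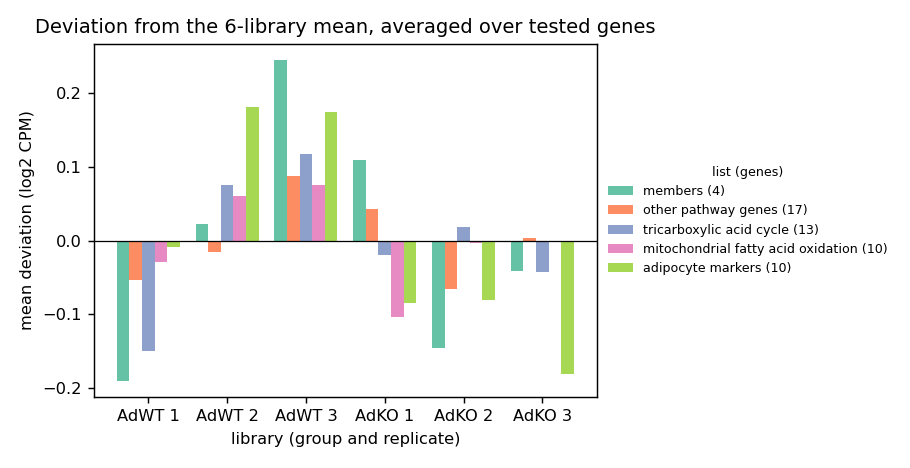
Mean deviation of log2 CPM from the 6-library mean (y axis) in each library (x axis), averaged over the tested genes of 5 lists (bar colours, with the number of genes in the legend). The bars of the members run from -0.19 in AdWT replicate 1 to 0.24 in AdWT replicate 3, and the members, other pathway genes, cycle genes and fatty acid oxidation genes have their highest bar in AdWT replicate 3, the adipocyte markers in AdWT replicate 2 (0.181, against 0.175 in AdWT replicate 3).

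Markers of the cell types in the depot also differed between these libraries. The summed level of the 11 adipocyte markers with a row, of 15 listed, was 77700 to 94900 CPM in AdWT and 73310 to 77800 CPM in AdKO, highest in AdWT replicate 3, with *Pnpla2* at 0. Of the 10 that were tested, 8 had a lower mean in AdKO, and the median of the log2 fold changes was -0.19. *Lep* and *Cd36* were lower at an unadjusted *p* under 0.05 in edgeR's test, beside 2.98% of all rows in that direction. *Cd36* stands here by the largest of its 5 rows, with 131 to 360 counts per library. The summed level of 7 of 10 macrophage markers was 503 CPM in AdWT replicate 3, 909 CPM in AdWT replicate 2, 1347 CPM in AdWT replicate 1 and 1132 to 1684 CPM in AdKO, with *Emr1* at 0, and 5 of the 5 tested had a higher mean in AdKO (median log2 fold change 0.41). For 7 of 10 fibroblast and progenitor markers it was 3455 CPM in AdWT replicate 3, 10330 CPM in AdKO replicate 2 and 5677 to 7510 CPM in the other libraries, and 4 of the 5 tested had a higher mean in AdKO (median 0.21). None of these 10 had an unadjusted *p* under 0.05. AdWT replicate 3, in which the members were highest, had the highest adipocyte sum and the lowest macrophage and fibroblast sums. A few abundant genes carry the sums, such as *Col3a1* with 3200 of the 3455 CPM for fibroblasts there. Of the 10 tested adipocyte markers, 5 were highest and 2 (*Lpl* and *Plin1*) lowest in that library. Of the fibroblast markers, *Pi16* was lowest in AdKO replicate 3 and *Cd34* in AdWT replicate 2. By the mean deviation over those 10 adipocyte markers AdWT replicate 2 (0.181) was above AdWT replicate 3 (0.175). The part of these marker differences in the members' levels was not tested. In bulk tissue, fewer cells of a type and less RNA per cell cannot be told apart.
Skeletal muscle also uses this pathway. The summed level of 11 of 16 muscle markers was 41.0 to 199 CPM in AdWT, highest in replicate 2, and 21.5 to 24.2 CPM in AdKO, with *Tnnt3* and *Myh4* at 0. Of 8 tested muscle markers 7 were lower in AdKO at an unadjusted *p* under 0.05, beside 2.98% of all rows in that direction. The 4 tested members had log2 fold changes between -0.18 and -0.005 without AdWT replicate 2, and the part of muscle in their levels was not tested. The sums of 9 of 10 lymphocyte markers were 13.8 to 37.5 CPM in AdWT and 12.5 to 19.8 CPM in AdKO, with *Cd8a* and *Cr2* at 0. All 5 tested lymphocyte markers had a lower mean in AdKO (median log2 fold change -0.49). Of these 1, *Cd4*, had an unadjusted *p* under 0.05, beside 2.98% of all rows in that direction. For 6 of 8 endothelial markers the sums were 927 to 1339 CPM in AdWT and 902 to 1285 CPM in AdKO. For 6 of 8 epithelial markers they were 1.08 to 20.3 CPM and 1.17 to 48.5 CPM, highest in replicate 3 of each group. In these last 2 lists none was at 0 throughout.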

How the data were processed

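RNA from iWAT was sequenced after library preparation with the KAPA Stranded RNA-Seq Kit. The deposited values are raw counts, without normalization, from reads that the authors mapped with HISAT2 (mm9). The counting tool and annotation are not given in the sources used here, so strand use and reads shared by several rows are unknown, and the 37024 rows hold up to several per symbol. Depth was 14470542 to 17882713 counts per library, and a count of 0 allows 3 counts, or 0.179 to 0.206 CPM, by counting error only. Counts were fitted with edgeR 4.0.16 (R 4.3.3; filterByExpr by group, TMM, glmQLFTest) and adjusted over 9872 rows with a threshold of 0.05; 95% intervals used the standard error (log2 fold change over the square root of F) and the test's degrees of freedom. Exact permutation tests (scipy 1.17.1) used log2 CPM with 0.5 added, or log2 ratios of counts with 0.5 added. Alternatives were DESeq2 1.42.0 (alpha 0.05), other scalings and filters, summed rows, a replicate block and leaving out each library. Both fits were tested on simulated data. Positions and lengths are from GENCODE on NCBIM37 (mm9). Genes named were the members, *Ppm1k* and *Dld*, the targeted gene, and genes of the other pathway, tricarboxylic acid cycle and fatty acid oxidation lists with an unadjusted *p* under 0.05, with groups that did not overlap, or with the 2 highest or 2 lowest levels per length; a few others were added as examples after their values were seen. 1 further gene of the pathway is not reported here. The members and lists were chosen with earlier results of these data known.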

Additional observations from a re-analysis of the deposited data

How the results depend on the processing

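The 4 tested members stayed without a call under every setting run, and 0 of the members had an unadjusted *p* under 0.05 in any of them. Their log2 fold changes were small enough for the sign to depend on the setting. With each library left out in turn, *Bckdha* ranged from -0.24 to 0.02, *Dbt* from -0.14 to 0.02, *Bckdk* from -0.051 to 0.046, *Ivd* from -0.21 to 0.125 and the log2 ratio of *Dbt* to *Bckdha* from -0.003 to 0.15. *Dbt* was 0.006 by library size only. *Bckdk* was -0.014 with DESeq2 (-0.012 on the rows of the edgeR test), -0.012 with RLE, -0.011 with upper quartile scaling and -0.004 with at least 1 count in any library. DESeq2 called 27 of the 6891 rows given an adjusted *p*, among 19526 without a prior filter. On the rows of the edgeR test (added after seeing the data) it called 23 of 8709. The number of rows called by edgeR was 1 with at least 1 count in any library. It was between 0 and 1 with a library left out (1 without AdKO replicate 3). The count of other pathway genes at an unadjusted *p* under 0.05, 1 as reported, was 0 with DESeq2 on either set of rows and by library size only and between 0 and 3 with a library left out (3 without AdWT replicate 1, 1 without AdWT replicate 3 and 0 otherwise), and their median was between -0.15 and -0.01. The cause of these shifts was not tested. The sample titles do not say whether replicate numbers pair the libraries. Over all rows tested the deviations of same-numbered libraries correlated at -0.08, -0.13 and 0.33, and those of other pairs at -0.33 to 0.41. With 3 libraries per group these values cannot decide it. With the replicate block the count of other pathway genes at an unadjusted *p* under 0.05 was 0, *Slc43a1* included, and the rows called remained 0. *Bcat1* to *Bcat2* could not be computed because *Bcat2* was not analysed here. *Bcat1* and *Mccc1* had too few counts to be tested as reported, and whether depth or the counting sets this was not tested.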

Other observations

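Low counts or 0 were also found for other mitochondrial enzymes. In the tricarboxylic acid cycle list, *Ogdh*, a subunit of the 2-oxoglutarate dehydrogenase complex, and *Suclg2*, a subunit of succinyl-CoA ligase, were listed at 0 in all 6 libraries, while their partners *Dlst* and *Suclg1* had mean levels of 202.6 ± 17.2 CPM and 176.2 ± 29.0 CPM (SD, n = 3) in AdWT. *Idh3b*, a subunit of isocitrate dehydrogenase, had 379.6 ± 26.8 CPM in AdWT, whereas *Idh3a* and *Idh3g*, subunits of the same enzyme, had 2 to 14 and 4 to 7 counts per library. These pairs were chosen after their values were seen.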
